A study of Homo sapiens with 6 samples.

Results

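The pentose phosphate pathway was followed through 7 enzyme genes in PLC/PRF/5, a human hepatoma cell line, using RNA-seq of 6 libraries. The members were chosen by name, from enzymes of the oxidative and non-oxidative branches: PGLS, PGD, H6PD, RPIA, RPE, TKT and TALDO1. All 7 were found among the 25071 genes of the count table, and all 7 passed the filter on low counts that left 15816 genes for testing. In 3 libraries the cells had been transfected with a plasmid that overexpresses ARD1, and in the other 3 with a control vector; both groups were harvested 48 hours after transfection. No other treatment is named for either group, and the promoter that drives the plasmid is not given in the sources used here. ARD1 is encoded by NAA10, whose product is an N-terminal acetyltransferase, and the study's title links it to glutathione synthesis and escape from ferroptosis. The comparison addresses which transcripts differed between the groups. Nothing in the labels states that the 3 libraries of a group were grown separately; the p-values therefore reflect variation among libraries that may be technical.

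The pathway branches off glycolysis at glucose 6-phosphate. Its oxidative branch yields NADPH and ribulose 5-phosphate, and its non-oxidative branch interconverts sugar phosphates, so that ribose 5-phosphate can be drawn for nucleotides or returned to glycolysis as fructose 6-phosphate and glyceraldehyde 3-phosphate. NADPH is the electron donor for the reduction of oxidised glutathione and thioredoxin and for fatty acid and cholesterol synthesis, all of which are active in liver cells.

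The libraries held 21857327 to 24423503 counts with the ARD1 plasmid and 22715392 to 25011357 with the control vector. NAA10 was at 355, 400 and 294 TMM-normalised CPM, the depth-scaled count used throughout, in the ARD1 libraries, against 35.5, 32.1 and 36.1 CPM in the control libraries (log2 fold change 3.34, SE 0.107, adjusted p = 3.53e-12). Control replicate 1 stood apart: its counts differed from those of the other controls by 17.1 and 19.9 in chi-square over degrees of freedom, against 2.49 to 4.35 for other pairs within a group. Mitochondrially encoded transcripts took 5.62% to 6.28% of the counts of an ARD1 library and 7.59% to 7.81% of those of a control library. The summed CPM of 11 hepatocyte markers was 424 to 457 in ARD1 libraries and 867.5 to 893 in control libraries, with ALB averaging 36.2 CPM with the ARD1 plasmid and 315 CPM with the control vector (4 of 8 tested rose and 4 fell). APOA1, APOA2 and TTR averaged at most 0.261 CPM in either group, so these hepatocyte transcripts were at or near the floor. Other hepatocyte markers were well above it in both groups. HNF4A averaged 41.4 CPM with the ARD1 plasmid and 34.95 CPM with the control vector (log2 fold change 0.25). FGA averaged 214.7 CPM with the ARD1 plasmid and 130 CPM with the control vector (0.72). FGB fell, averaging 117 CPM with the ARD1 plasmid and 227.7 CPM with the control vector (-0.96). Over 4 cholangiocyte markers, mostly KRT19, the sum was 135.5 to 144 CPM in ARD1 libraries and 493 to 630.4 in control libraries, and all 3 tested fell. Of these 4, EPCAM averaged 0.273 CPM with the ARD1 plasmid and 0.289 CPM with the control vector. The sum over 7 fibroblast and stellate markers was 18.2 to 20.6 CPM in ARD1 libraries and 78.0 to 98.7 in control libraries, and 1 of 5 tested rose and 2 fell. COL3A1 and LUM, which carry most of the sum in control libraries, fell by 4.80 and 2.01 on the log2 scale, COL1A1 rose by 1.55, and COL1A2 averaged 0.0413 CPM with the ARD1 plasmid and 0.0299 CPM with the control vector. Over 6 endothelial markers it was 91.2 to 104 CPM in ARD1 libraries and 70.6 to 83.2 in control libraries, and 3 of 5 tested rose and 1 fell. PECAM1, VWF and KDR rose (log2 fold changes 0.82, 5.29 and 2.05). VWF averaged 1.40 CPM with the ARD1 plasmid and 0.0299 CPM, at the floor, with the control vector, so the size of its change is uncertain. CDH5 fell to 0.0676 CPM with the ARD1 plasmid, against 33.1 CPM with the control vector. Over 7 immune markers the sum was 9.03 to 10.2 CPM in ARD1 libraries and 17.1 to 19.5 in control libraries. Of 4 tested, 2 fell and 0 rose. ITGAM, which carries most of the sum, averaged 5.4 CPM with the ARD1 plasmid and 12.39 CPM with the control vector. PTPRC averaged 0.0528 CPM with the ARD1 plasmid and 1.74 CPM with the control vector. CD14 did not pass the test, at 3.25 CPM with the ARD1 plasmid and 2.98 CPM with the control vector. Across all tested genes 32.4% rose and 32.2% fell, which is the background for these marker counts. The part of these marker differences in the results below was not tested. The labels name only PLC/PRF/5 cells, so these sums do not measure numbers of other cell types. In bulk RNA, a change in some of the cells and a change in all of them cannot be told apart.

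Of the 7 pentose phosphate transcripts 4 fell with the ARD1 plasmid, 1 rose and 2 did not pass the test. TKT fell 4.08-fold, PGD 2.29-fold and TALDO1 1.96-fold, RPIA rose 1.35-fold, and PGLS passed as lower by only 1.19-fold under a call that several settings ended. The test was edgeR's quasi-likelihood test with Benjamini-Hochberg adjustment over all 15816 genes and a threshold of 0.05. Across all genes 64.6% passed it, 32.2% as lower and 32.4% as higher, so 5 calls among 7 genes are near the background share. The median log2 fold change was -0.25 over the 7 and 0.03 over all tested genes. The 7 transcripts together summed to 1698, 1734 and 1612 CPM in the ARD1 libraries, against 5079, 4126 and 4090 CPM in the control libraries. TKT, PGD and TALDO1 supplied 87.5% to 87.8% of that sum in ARD1 libraries and 94.9% to 95.6% in control libraries.

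**Figure D1:**
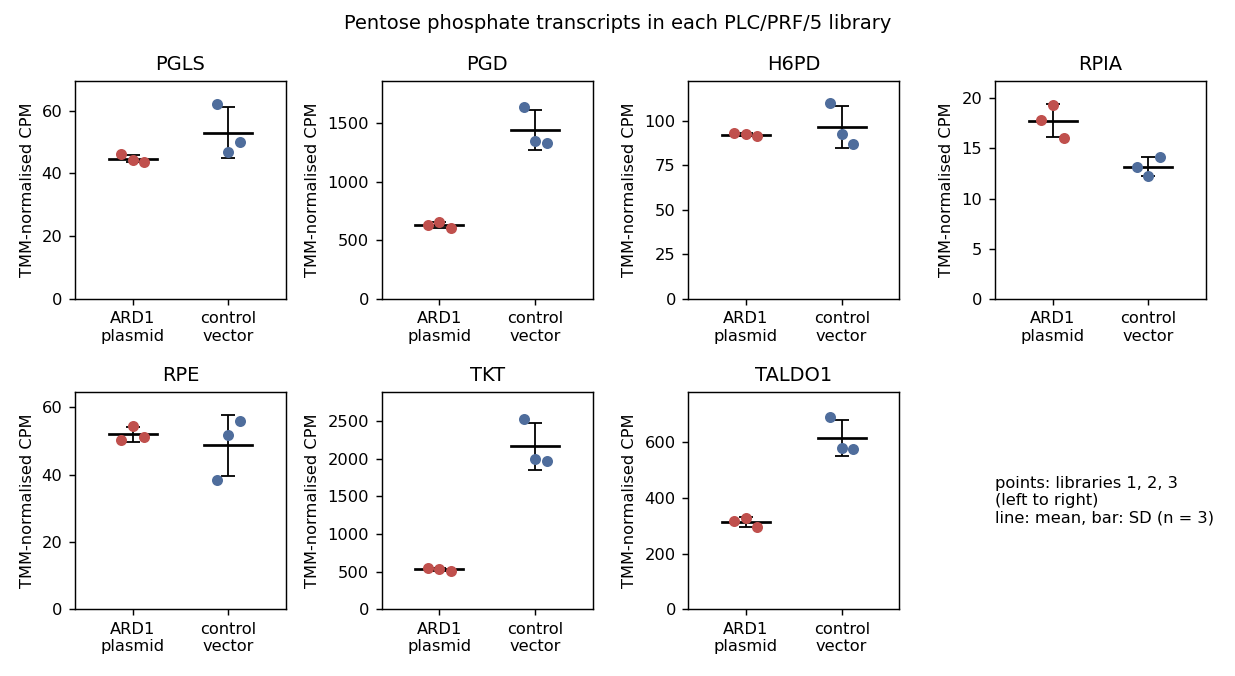
TMM-normalised CPM (vertical axis, from 0) of the 7 transcripts in ARD1 plasmid libraries (left, red) and control vector libraries (right, blue). Points are libraries, lines the mean and bars the SD of 3; the groups are far apart for TKT, PGD and TALDO1, and control replicate 1 is the highest control library for 5 of the 7 transcripts and the lowest for RPE.

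The promoters of the 3 abundant transcripts that fell are shown with that of RPE, which did not pass, because the transcripts differ in size of change and the windows differ in one motif known to bind NRF2, a transcription factor of redox defence. Each window runs from 250 bases before to 50 bases after the start of the gene as RefSeq places it (GRCh38.p14). TKT is at chr3:53255973-53256272 on the minus strand, PGD at chr1:10398814-10399113, TALDO1 at chr11:747214-747513 and RPE at chr2:210002388-210002687, the last 3 on the plus strand. Capitals mark matches to TGACNNNGC, the core of the antioxidant response element, searched on both strands.
TKT: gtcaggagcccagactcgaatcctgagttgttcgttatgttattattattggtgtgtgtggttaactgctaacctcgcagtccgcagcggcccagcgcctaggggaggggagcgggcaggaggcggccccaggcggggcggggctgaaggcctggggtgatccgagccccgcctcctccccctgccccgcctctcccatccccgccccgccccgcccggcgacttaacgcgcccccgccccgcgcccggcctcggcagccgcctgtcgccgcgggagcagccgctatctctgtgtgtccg
PGD: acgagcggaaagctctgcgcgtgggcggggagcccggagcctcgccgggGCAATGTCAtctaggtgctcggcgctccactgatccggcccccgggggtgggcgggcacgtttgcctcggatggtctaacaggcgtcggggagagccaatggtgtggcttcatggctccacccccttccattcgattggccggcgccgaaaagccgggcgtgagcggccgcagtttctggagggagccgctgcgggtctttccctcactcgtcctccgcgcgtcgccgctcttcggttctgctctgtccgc
TALDO1: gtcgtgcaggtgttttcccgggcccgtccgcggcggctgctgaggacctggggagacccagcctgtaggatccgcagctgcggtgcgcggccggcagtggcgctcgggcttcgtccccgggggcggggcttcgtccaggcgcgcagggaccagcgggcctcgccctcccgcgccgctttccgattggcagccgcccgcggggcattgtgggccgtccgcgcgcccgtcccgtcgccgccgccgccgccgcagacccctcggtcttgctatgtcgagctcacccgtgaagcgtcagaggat
RPE: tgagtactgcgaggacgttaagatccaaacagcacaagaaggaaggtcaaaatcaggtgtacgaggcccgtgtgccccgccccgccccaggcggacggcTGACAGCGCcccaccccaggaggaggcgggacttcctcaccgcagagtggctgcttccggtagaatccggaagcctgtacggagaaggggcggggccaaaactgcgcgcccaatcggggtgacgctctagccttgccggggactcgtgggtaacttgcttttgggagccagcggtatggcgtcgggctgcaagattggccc
All 7 members matched a promoter in the table. The motif was present in 2 of the 7 windows, in PGD on the other strand from position -201 and in RPE as written from position -151, and it was present in 13.3% of all 35116 windows. The windows of TKT and TALDO1, which fell, and of RPIA, which rose, held no match to these letters. GC content was 70.7% for TKT, 68.7% for PGD, 75.0% for TALDO1 and 63.7% for RPE, against a median of 58.7% over all windows. The H6PD window, at chr1:9239597-9239896 with a GC content of 47.3%, lies inside the span that GENCODE 29 gives the gene, so it does not describe the promoter at the GENCODE start. The PGD window also lies inside the GENCODE 29 span of its gene, which starts at 10398592. Its motif match is therefore downstream of the GENCODE start.

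Among the oxidative-branch members PGLS, PGD and H6PD, PGD moved most. The cytosolic enzyme that opens this branch is not among the members and was not analysed here, so the steps of the branch cannot be ranked. PGLS (ENSG00000130313; chromosome 19, 17511629 to 17521288, plus strand, GRCh38 with GENCODE 29) encodes 6-phosphogluconolactonase, which hydrolyses the lactone to 6-phosphogluconate. It was at 46.1, 44.4 and 43.7 CPM in the ARD1 libraries and 62.2, 46.8 and 50.1 CPM in the control libraries. The groups did not overlap, but the gap between the lowest control and the highest ARD1 library was small. The log2 fold change was -0.25 (SE 0.0988, adjusted p = 0.0402). The call was lost without control replicate 1 (-0.13, adjusted p = 0.0728) and on leaving out any 1 ARD1 library (adjusted p 0.0717 to 0.124), and the direction turned after GC and length offsets (0.22, adjusted p = 0.00387) and with library totals (0.02, adjusted p = 0.837). Over its alternatives the adjusted p spanned 0.00239 to 0.837. Of its exon bases 9.17% lie opposite exons of PGLS-DT, which was at 3.06 ± 0.448 CPM with the ARD1 plasmid and 0.985 ± 0.313 CPM with the control vector (SD, n = 3). Whether the authors' counting used strand is not given in the sources used here.

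PGD (ENSG00000142657; chromosome 1, 10398592 to 10420144, plus strand) encodes 6-phosphogluconate dehydrogenase, the cytosolic enzyme that forms NADPH and ribulose 5-phosphate. It fell to 631, 653 and 609 CPM in the ARD1 libraries, against 1642, 1352 and 1336 CPM in the control libraries. Every ARD1 library was below every control library by a wide margin. The log2 fold change was -1.19 (SE 0.0835, adjusted p = 1.27e-08), and it stayed between -1.28 and -0.93 over 17 alternative fits.

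H6PD (ENSG00000049239; chromosome 1, 9234775 to 9271337, plus strand) encodes hexose-6-phosphate dehydrogenase, which carries out the opening steps of the oxidative branch inside the endoplasmic reticulum. It was at 92.8, 92.5 and 91.2 CPM in the ARD1 libraries and 109.9, 92.5 and 87.1 CPM in the control libraries. The groups overlapped, and the difference was -0.07 on the log2 scale with a 95% interval of -0.25 to 0.12 (adjusted p = 0.512). With library totals alone it passed as higher (0.20, adjusted p = 0.0284; range over all alternatives 0.0284 to 0.821), and it was also above 0 after GC and length offsets (0.09) and without control replicate 1 (0.03).

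The isomerase and the epimerase both act on ribulose 5-phosphate. RPIA (ENSG00000153574; chromosome 2, 88691644 to 88750935, plus strand) encodes the isomerase that makes ribose 5-phosphate, the precursor of nucleotides. It rose to 17.9, 19.3 and 16.1 CPM in the ARD1 libraries, against 13.1, 12.3 and 14.1 CPM in the control libraries. The groups did not overlap. The log2 fold change was 0.43 (SE 0.108, adjusted p = 0.00276), and it passed in all 17 alternative fits, at 0.36 to 0.69.

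RPE (ENSG00000197713; chromosome 2, 210002565 to 210022259, plus strand) encodes the epimerase that makes xylulose 5-phosphate. It was at 50.3, 54.5 and 51.3 CPM in the ARD1 libraries and 38.6, 51.9 and 55.8 CPM in the control libraries. All 3 ARD1 libraries lay inside the range of the controls, whose lowest value was that of replicate 1. The log2 fold change was 0.09 with a 95% interval of -0.15 to 0.33 (adjusted p = 0.479). RPE passed as higher with library totals (0.35, adjusted p = 0.0266) and as lower after GC and length offsets (-0.17, adjusted p = 0.0189), and it came to -0.06 without control replicate 1, so its direction rests on the setting. The adjusted p spanned 0.0189 to 0.724 over its alternatives. Among the 7 genes its transcript has the lowest GC content, 36.6%, and that of PGLS, the other gene that changed sign and passed with those offsets, the highest, 61.6%. The offsets are set by GC content and length, so this is no test of why these genes turned. Of its exon bases 23.8% lie opposite exons of KANSL1L, which rose (log2 fold change 0.82, SE 0.117, adjusted p = 2.27e-05), so RPE counts are uncertain to that extent. Pseudogene copies are annotated for RPE (6), PGD (1) and RPIA (1). None of these copies is in the count table, so how reads shared with a copy were counted is not known for these 3 genes.

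In the non-oxidative branch both carbon-transfer enzymes fell. TKT (ENSG00000163931; chromosome 3, 53224707 to 53256052, minus strand) encodes transketolase, the thiamine-dependent enzyme that moves 2-carbon units between sugar phosphates. It fell to 543, 542 and 506 CPM in the ARD1 libraries, against 2524, 1992 and 1971 CPM in the control libraries. The highest ARD1 library was far below the lowest control. The log2 fold change was -2.03 (SE 0.0937, adjusted p = 1.30e-10), and 3.79% of tested genes had a lower one. Over 17 alternative fits it ranged from -2.12 to -1.76, and without control replicate 1, the control library with the most TKT, it was -1.91.

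TALDO1 (ENSG00000177156; chromosome 11, 747329 to 765024, plus strand) encodes transaldolase, which moves 3-carbon units. It fell to 316, 328 and 295 CPM in the ARD1 libraries, against 689, 579 and 576 CPM in the control libraries. Again the groups did not overlap. Its change was -0.97 on the log2 scale (SE 0.0813, adjusted p = 8.63e-08), with 12.5% of tested genes lower, and it came to -0.65 after GC and length offsets and -0.71 with library totals. In all, 5 of the 7 transcripts did not overlap between the groups, where 69.6% of tested genes did not. Among genes averaging at least 100 CPM, to which TKT, PGD and TALDO1 belong, 74.1% passed the test and 47.5% fell.

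**Figure D2:**
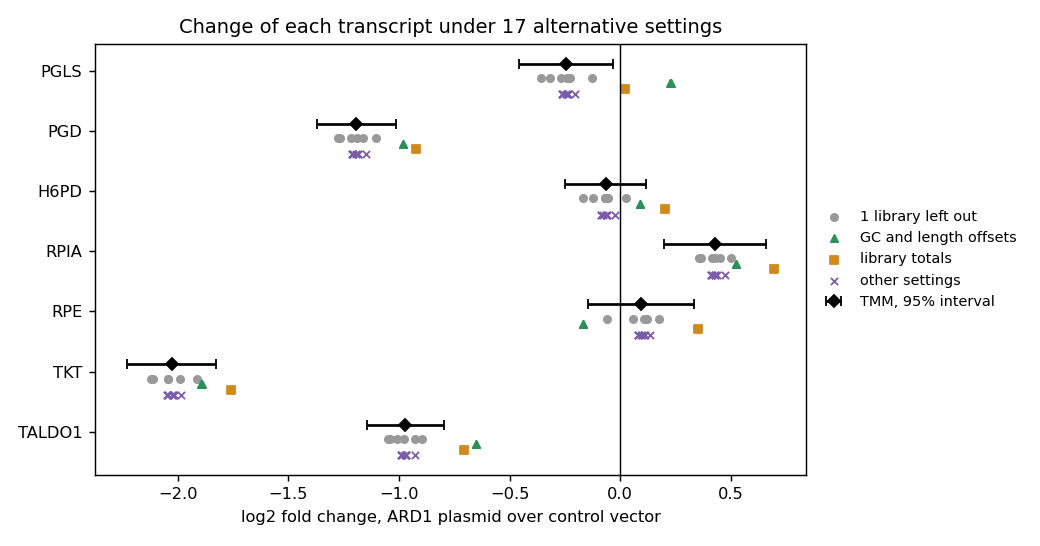
Log2 fold change of each transcript, ARD1 plasmid over control vector (horizontal axis). Diamonds and bars are the TMM estimate and its 95% interval, other marks the 17 alternative fits; TKT, PGD and TALDO1 stay below 0 and RPIA above 0 in all of them, while PGLS, H6PD and RPE cross 0.

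The 2 measured paralogues had almost no counts. TKTL2, a transketolase-like gene, had 0, 3 and 0 counts in the ARD1 libraries and 0, 0 and 1 in the control libraries. RPEL1, an epimerase copy, had 3, 6 and 3 counts in the ARD1 libraries and 3, 1 and 2 in the control libraries. Both were at or near the 3 counts per library used as a floor, neither passed the filter, and no fold is given. TKTL1 was not analysed here.

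Ratios of 2 transcripts within a library do not depend on how libraries are scaled. There were 1.72, 1.65 and 1.71 TKT counts for each TALDO1 count in the ARD1 libraries, against 3.66, 3.44 and 3.42 in the control libraries. The difference in log2 ratio was -1.05, and the groups did not overlap (two-sided exact permutation test, p = 0.1, the smallest that 3 libraries against 3 allow; 0.133 adjusted over 4 pairs). PGD counts per PGLS count were 13.7, 14.7 and 13.9 in the ARD1 libraries and 26.4, 28.9 and 26.7 in the control libraries, again without overlap (log2 difference -0.95, exact permutation p = 0.1, adjusted 0.133). H6PD counts per PGD count, which set the endoplasmic reticulum enzyme against the cytosolic one, were 0.147, 0.142 and 0.150 in the ARD1 libraries and 0.067, 0.0685 and 0.0652 in the control libraries (log2 difference 1.13, exact permutation p = 0.1, adjusted 0.133). All 3 of these ratios were tight within a group, control replicate 1 included. RPIA counts per RPE count were 0.356, 0.355 and 0.313 in the ARD1 libraries and 0.341, 0.237 and 0.253 in the control libraries. This ratio overlapped through control replicate 1 (log2 difference 0.32, exact permutation p = 0.2, adjusted 0.2). No pair could reach 0.05 in this design.

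**Figure D3:**
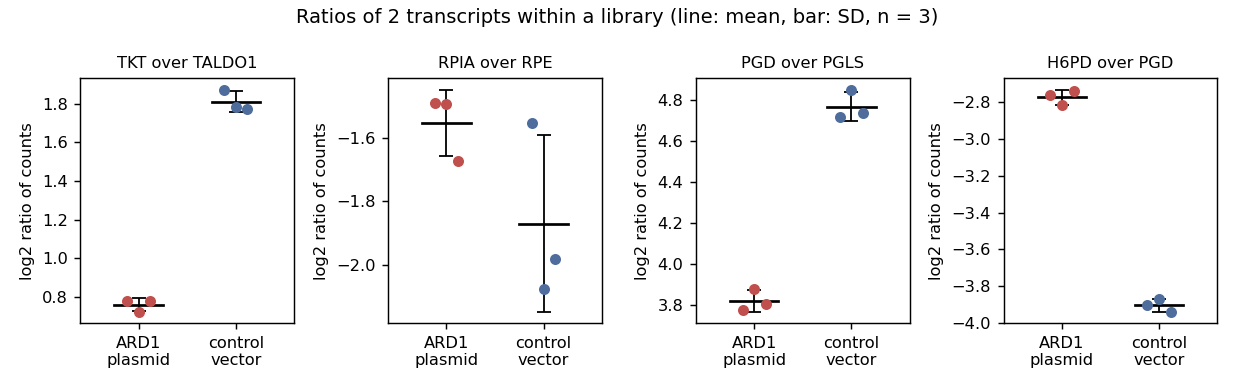
Log2 ratio of the counts of 2 transcripts within each library (vertical axis) for 4 pairs, ARD1 plasmid left (red) and control vector right (blue), with the mean and SD of 3 libraries. The groups are apart for TKT over TALDO1, PGD over PGLS and H6PD over PGD, and overlap for RPIA over RPE.

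Levels of different genes were compared as CPM per kilobase of merged exons. PGD was the highest of the 7 in both groups, at 213 ± 7.43 CPM per kilobase with the ARD1 plasmid and 487 ± 58.1 with the control vector (SD, n = 3). TALDO1 was next in ARD1 libraries at 104 ± 5.60 CPM per kilobase, ahead of TKT at 55.8 ± 2.22. In control libraries TKT averaged 227 ± 33.0 and TALDO1 204.5 ± 21.5 CPM per kilobase. The means differed by less than the SD of TKT but by more than that of TALDO1. Within each of the 3 control libraries TKT was higher, by 1.08 to 1.16 times. PGLS, RPE, H6PD and RPIA were far lower, between 9.61 and 15.7 CPM per kilobase in ARD1 libraries and between 7.14 and 18.6 in control libraries. PGLS was above RPE in all 3 ARD1 libraries, by 1.01 to 1.13 times, and in all 3 control libraries, by 1.11 to 1.99 times. The order of H6PD and RPIA was mixed in ARD1 libraries (H6PD higher in 2 of 3), as was that of RPE and H6PD in control libraries (RPE higher in 2 of 3). The order of RPE and H6PD depends on the length used. RPE was higher in all 3 control libraries per kilobase of the longest annotated transcript (1.01 to 1.85 times) and of the principal transcript (1.25 to 2.28 times). As a share of the 7 levels per kilobase, TKT took 13.0% to 13.4% in ARD1 libraries and 23.0% to 24.1% in control libraries, and TALDO1 took 24.2% to 24.9% in ARD1 libraries and 20.8% to 21.3% in control libraries. The share of PGD was at most 50.7% in ARD1 libraries and 50.3% in control libraries. The place of TKT depends on the length used, since its merged exons span 9507 bases, its longest annotated transcript 7286 and its principal transcript 3010. Per kilobase of the longest transcript, TKT was below TALDO1 in both groups, at 72.8 ± 2.90 CPM against 233 ± 12.5 in ARD1 libraries and at 297 ± 43.0 CPM against 456.5 ± 48.0 in control libraries. Per kilobase of the principal transcript, a length chosen after seeing the data, TKT was at 176 ± 7.03 CPM in ARD1 libraries and 718 ± 104 in control libraries, and TALDO1 at 233 ± 12.5 in ARD1 libraries and 456.5 ± 48.0 in control libraries.

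Most glycolytic steps that share intermediates with the pathway fell. Of 12 genes listed 11 were tested, 10 fell and 0 rose, with a median log2 fold change of -1.06 and the same count under every scaling. After GC and length offsets the median was -0.71. Across all tested genes 32.2% fell and 32.4% rose, which is the background for this list and those that follow. Among genes averaging at least 100 CPM 47.5% fell. Whether this list differs from the pentose phosphate genes was not tested. ALDOC, an aldolase, was at 9.03, 10.5 and 8.57 CPM in the ARD1 libraries and 109.1, 86.1 and 90.65 CPM in the control libraries (log2 fold change -3.34, SE 0.112). FBP1, the gluconeogenic fructose bisphosphatase, was at 0.796 ± 0.0777 CPM with the ARD1 plasmid and 5.59 ± 0.697 CPM with the control vector (SD, n = 3; -2.80, SE 0.213), and GPI, which interconverts glucose and fructose 6-phosphate, at 257 ± 5.13 CPM with the ARD1 plasmid and 707 ± 94.0 CPM with the control vector (-1.46, SE 0.0867). The gene that did not pass was HK2, a hexokinase, at 1.08 ± 0.252 CPM with the ARD1 plasmid and 0.795 ± 0.405 CPM with the control vector (adjusted p = 0.338).

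Of 5 genes listed around H6PD in the endoplasmic reticulum 3 were tested, and all 3 fell, where 32.2% of all tested genes fell. With library totals 2 fell. SLC37A4 and G6PC3 handle glucose 6-phosphate, whereas HSD11B2 neither supplies nor uses it. SLC37A4, which carries glucose 6-phosphate into the endoplasmic reticulum, was at 9.45, 8.28 and 9.62 CPM in the ARD1 libraries and 35.3, 31.5 and 31.3 CPM in the control libraries (log2 fold change -1.84, SE 0.103). G6PC3, a phosphatase of the same compartment, had a log2 fold change of -0.32 (adjusted p = 0.00768), a call that library totals ended (-0.05, adjusted p = 0.601, range over its alternatives 0.00176 to 0.601). HSD11B2, a cortisol dehydrogenase that uses NAD, was at 0.355 ± 0.127 CPM with the ARD1 plasmid and 1.86 ± 0.426 CPM with the control vector (-2.36, SE 0.358). HSD11B1, the reductase that H6PD is known to serve, averaged 0.0927 CPM with the ARD1 plasmid and 0.0785 CPM with the control vector and was not tested.

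Genes listed around other sources of NADPH and NADP, not all of which form either, split. Of 11 tested, 4 rose and 7 fell (median -0.30), with library totals 4 rose and 4 fell (median -0.03), and after GC and length offsets 4 rose and 5 fell (median 0.01). IDH2, the mitochondrial isocitrate dehydrogenase, was at 23.4, 26.5 and 23.9 CPM in the ARD1 libraries and 104.8, 88.0 and 92.9 CPM in the control libraries (log2 fold change -1.95, SE 0.0891). MTHFD1, a folate enzyme of the cytosol, fell by 0.69 on the log2 scale (SE 0.0812). ME2 rose by 0.86 (SE 0.0840); it is a mitochondrial malic enzyme that works mainly with NAD. Chosen after their values were seen, the cytosolic IDH1 rose to 542, 522 and 546 CPM in the ARD1 libraries, against 351, 382 and 383 CPM in the control libraries (0.53, SE 0.0669), and the cytosolic malic enzyme ME1 was at 179 ± 5.14 CPM with the ARD1 plasmid and 268 ± 19.6 CPM with the control vector (-0.58, SE 0.0720). So IDH1 rose while IDH2, ME1 and PGD fell.

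Among 10 listed users of NADPH in redox defence and reduction, 5 rose, 3 fell and 2 did not pass (median 0.05). SRXN1 rose most, to 98.4 ± 8.16 CPM with the ARD1 plasmid against 26.5 ± 1.61 CPM with the control vector (1.89, SE 0.0864); its product, sulfiredoxin, restores peroxiredoxins and takes its electrons from thiols, not directly from NADPH. Of its exon bases 84.95% are shared with an overlapping gene on the same strand. NQO1, the quinone reductase, was at 943 ± 50.5 CPM with the ARD1 plasmid and 1929 ± 128 CPM with the control vector (-1.03, SE 0.0738). Chosen after their values were seen, the thioredoxin reductase TXNRD1 rose by 0.27 (SE 0.0680). The glutathione reductase GSR passed at 0.18 (adjusted p = 0.0475) but not with RLE scaling (0.16, adjusted p = 0.0983; lowest and highest of its alternatives 9.82e-06 and 0.348), and its call was lost on leaving out any 1 library other than control replicate 1 (0.09 to 0.21).

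Genes listed around the entry and exit of pentose phosphates also split, with 4 of 13 higher, 3 lower and 6 not past the test (median 0.12). With library totals 7 were higher and 2 lower. The list also holds TIGAR, which is not itself such a step. UPP1, the uridine phosphorylase that releases ribose 1-phosphate, was at 67.5, 67.6 and 70.5 CPM in the ARD1 libraries and 26.45, 22.03 and 22.3 CPM in the control libraries (log2 fold change 1.54, SE 0.0882). TIGAR, whose product lowers fructose 2,6-bisphosphate, was at 9.27 ± 0.973 CPM with the ARD1 plasmid and 3.22 ± 0.788 CPM with the control vector (1.53, SE 0.174), and 42.6% of its exon bases are shared with another gene on the same strand. SORD, the sorbitol dehydrogenase, was at 13.8 ± 1.82 CPM with the ARD1 plasmid and 35.1 ± 1.73 CPM with the control vector (-1.35, SE 0.105). XYLB, the xylulokinase whose product is xylulose 5-phosphate, was chosen after its value was seen and rose by 1.14 (SE 0.126).

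Ribose 5-phosphate is activated to PRPP by a synthetase with 4 listed genes, of which 1 rose, 1 fell and 2 did not pass; with library totals 3 rose and 0 fell. PRPSAP2, an associated protein, was at 43.1 ± 3.24 CPM with the ARD1 plasmid and 33.2 ± 1.53 CPM with the control vector (0.38, SE 0.0857). PRPS2, a catalytic subunit, was at 22.75 ± 2.12 CPM with the ARD1 plasmid and 29.02 ± 3.62 CPM with the control vector (-0.35, adjusted p = 0.0107). This call ended with library totals (-0.09, adjusted p = 0.521, range 1.66e-05 to 0.521 in its alternatives) and on leaving out ARD1 replicate 1 (-0.27, 0.0703). Chosen after its value was seen, the more abundant catalytic subunit PRPS1 averaged 98.4 CPM with the ARD1 plasmid and 89.3 CPM with the control vector. It did not pass (0.14, adjusted p = 0.0928). Over RLE, upper-quartile and no scaling PRPS1 ranged from 0.12 to 0.40 (adjusted p 0.000181 to 0.15). Of 14 genes that build or salvage nucleotides from PRPP 8 fell, 1 rose and 5 did not pass (median -0.24); with library totals 3 fell and 5 rose. APRT, the adenine salvage enzyme, was at 23.7 ± 0.941 CPM with the ARD1 plasmid and 54.8 ± 7.46 CPM with the control vector (-1.21, SE 0.0996), PAICS of purine synthesis at 99.9 ± 5.21 CPM with the ARD1 plasmid and 199 ± 17.1 CPM with the control vector (-0.996, SE 0.0787), and PFAS of the same route at 50.6 ± 3.94 CPM with the ARD1 plasmid and 78.4 ± 9.05 CPM with the control vector (-0.63, SE 0.0923).

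**Figure D4:**
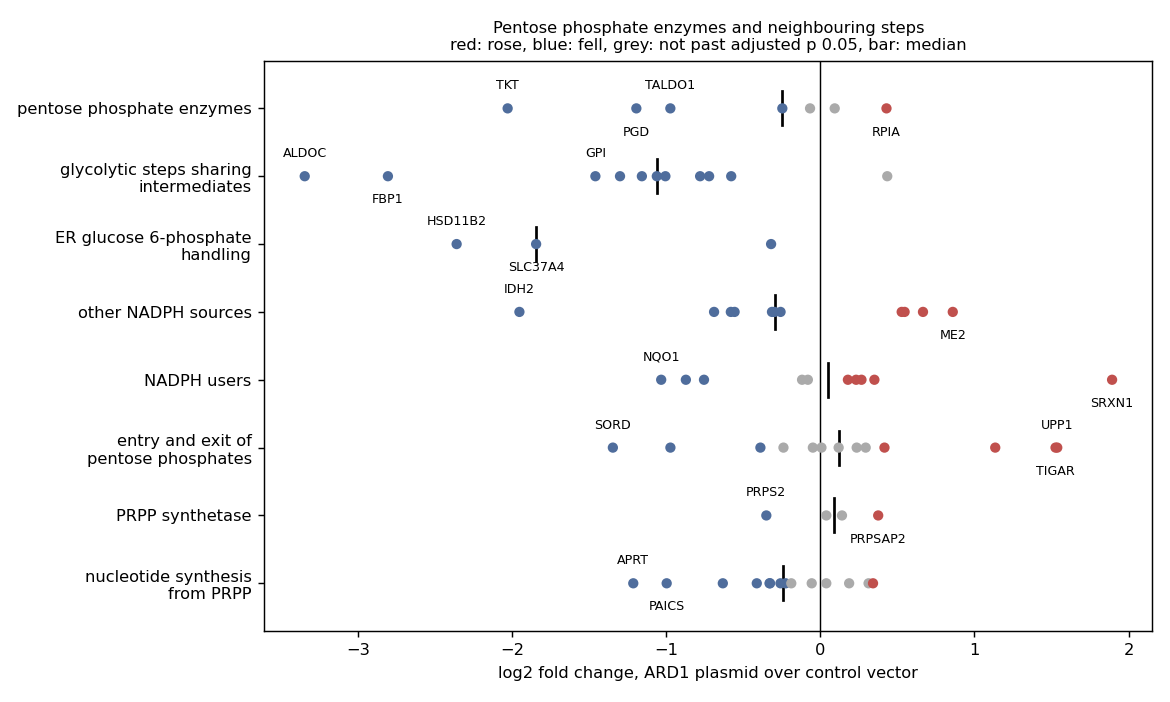
Log2 fold change, ARD1 plasmid over control vector (horizontal axis), of the 7 pentose phosphate genes and of the tested genes of 7 neighbouring lists (rows). Red points rose, blue points fell, grey points did not pass adjusted p 0.05, and bars are medians; the glycolytic row holds 10 blue points and no red one, whereas the pentose phosphate row holds 4 blue and 1 red.

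Genes with the most similar profile were sought among genes averaging at least 10 CPM, by the root-mean-square difference of centred log2 CPM over the 6 libraries. The nearest to TKT was TMBIM1 (difference 0.0374; log2 fold change -1.98), to PGD the zinc finger gene ZNF581 (0.0149; -1.24) and to TALDO1 the nucleotide-sulfate transporter SLC35B2 (0.00816; -0.97). For RPIA it was the kinase TLK2 (0.0471; 0.38), for H6PD the cytoskeletal linker MSN (0.0134; -0.07), for RPE the translocon subunit SEC62 (0.0152; 0.07) and for PGLS the membrane glycoprotein BSG (0.0240; -0.21). MSN, SEC62 and BSG, like H6PD and RPE, did not pass the test.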

How the data were processed

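Gene expression was measured by RNA-seq of rRNA-depleted total RNA with a directional kit, per the labels' protocols. Per the submitters' processing notes, cutadapt 4.6, STAR 2.7.11b and GRCh38 were used; which program counted reads, with what strand setting and annotation, is not given in the sources used here. Deposited values are the authors' raw counts per Ensembl gene, for 25071 genes whose counts over 6 libraries sum to 2 or more. Symbols matched for 25052 identifiers, and coordinates, GC content and lengths came from GENCODE 29. Counts without molecular identifiers are not independent molecules, so the floor of 3 counts (0.120 to 0.137 CPM before TMM scaling) covers counting error only.

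Groups and replicate numbers came from the titles. Genes were filtered by filterByExpr (15816 kept), scaled by TMM and compared with edgeR 4.0.16 (R 4.3.3), with intervals at 95% and standard errors from the F statistic. The main fit and the fit with GC and length offsets were run on simulated counts with few changed genes, balanced up and down. Far more genes changed in these data, so the simulation does not test the scaling. Ratios used a pseudocount of 0.5 count. Alternatives were RLE, upper-quartile and no scaling, totals without NAA10, loess offsets for GC content and length (96.3% of tested genes had both), DESeq2 1.42.0, limma-voom (limma 3.58.1), 2 other filters, a replicate block and leaving out each library.

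The members, the 7 neighbouring lists and the markers were chosen with earlier results of these data known. Named genes are the members, NAA10, the paralogues, up to 3 changed genes of each list with the largest absolute log2 fold change and a mean of 1 CPM or more in either group, and the nearest profile of each member. A gene that this rule names is not reported here.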

Additional observations from a re-analysis of the deposited data

How the results depend on the processing

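TKT, PGD, TALDO1 and RPIA kept their direction and passed the threshold in all 17 alternative fits. PGLS did not pass with upper-quartile scaling (-0.20), turned to 0.02 (0.0222) with library totals and to 0.22 with GC and length offsets (0.23 with the replicate block added), and ranged from -0.36 to -0.13 when 1 library was left out. RPE came to 0.35 with library totals, -0.17 with the offsets and -0.17 with offsets and block, and H6PD to 0.20 with library totals. The cause of these turns was not tested. With the offsets BSG came to 0.26 (0.26 with the block) and SEC62 to -0.26 (-0.26 with the block), and with library totals MSN came to 0.20. Without scaling factors the median of all genes moved to 0.295 from 0.03, and 68.5% of changed genes were higher in place of 50.2%. Of 10223 changed genes 3406 differed by 1 or more on the log2 scale. The replicate numbers did not pair libraries: deviations of same-numbered libraries correlated at -0.0356 to 0.0342 across genes, and with the number as a block 10293 genes changed. The 4 ratios kept their sign with a pseudocount of 1 and without any 1 library. Levels per kilobase depend on the transcript length used. With 3 libraries a group, an exact permutation test cannot go below 0.1.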
